A study of Mus musculus with 6 samples.

Results

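The 10 genes described here encode the lipid-sensing nuclear receptors of the liver, the partner and coregulator proteins they work with, and the liver transcription factor CREB3L3. They were chosen by name, as the rows of the deposited count table whose gene symbol is Ppara, Ppard, Pparg, Rxra, Rxrb, Nr1h4, Nr0b2, Ncor1, Med1 or Creb3l3. All 10 had 1 row each among the 42380 rows of the table, and all 10 were among the 12468 genes with enough counts to be tested. The study sequenced polyadenylated RNA from mouse liver in 6 libraries. In 3 libraries the mice had been exposed to DEHP, di(2-ethylhexyl) phthalate, a plasticizer, and 3 libraries came from control livers. The table columns of the exposed livers carry the word High and a replicate number, with no dose. The labels name no strain, sex, age, dose, route or duration. Nor do they say that the libraries of a group came from separate animals, so p-values measure the spread between these libraries.

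PPARalpha, PPARdelta and PPARgamma, encoded by Ppara, Ppard and Pparg, are receptors for fatty acids and their derivatives. Each binds DNA as a pair with a retinoid X receptor, RXR, and phthalate monoesters are known as ligands of PPARalpha and PPARgamma in rodents. The farnesoid X receptor FXR, encoded by Nr1h4, senses bile acids, also pairs with RXR, and induces Nr0b2, whose product SHP lacks a DNA-binding domain and represses bile acid synthesis genes. NCOR1 is a corepressor held by receptors that have no activating ligand, MED1 is the Mediator subunit that liganded receptors contact, and CREB3L3 is a membrane-held factor of hepatocytes that is cleaved to enter the nucleus and works with PPARalpha on fasting genes.

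In the coordinates of the count table, whose identifiers are those of the C57BL/6NJ strain annotation, all 10 are protein-coding genes. On plus strands, Ppara lies on chromosome 15 from 89883354 to 89956391, Ppard on chromosome 17 from 28726745 to 28806207 and Pparg on chromosome 6 from 120977640 to 121121081. Also on plus strands, Rxra lies on chromosome 2 from 26564430 to 26652907, Rxrb on chromosome 17 from 35302730 to 35309311 and Nr0b2 on chromosome 4 from 140691628 to 140694796. On minus strands, Nr1h4 lies on chromosome 10 from 93660692 to 93744969, Creb3l3 on chromosome 10 from 84575888 to 84591131, Ncor1 on chromosome 11 from 64302508 to 64460841 and Med1 on chromosome 11 from 103752740 to 103798457. Sequence positions given next are in another assembly and cannot be set against these.

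Promoter sequences are shown for the member whose transcript varied most among the 6 libraries, Nr0b2, and for 2 receptors that varied little, Nr1h4 and Rxra. They are the 250 bases before a RefSeq start site, on the gene's own strand, in build GRCm38.p6, and lie at chr4:133553126-133553375 on the plus strand, chr10:89506659-89506908 on the minus strand and chr2:27676951-27677200 on the plus strand. Capitals mark matches to AGGTCA, the core that nuclear receptors bind, to the GC box CCGCCC and to the TATA box TATAAA, on either strand.
Nr0b2: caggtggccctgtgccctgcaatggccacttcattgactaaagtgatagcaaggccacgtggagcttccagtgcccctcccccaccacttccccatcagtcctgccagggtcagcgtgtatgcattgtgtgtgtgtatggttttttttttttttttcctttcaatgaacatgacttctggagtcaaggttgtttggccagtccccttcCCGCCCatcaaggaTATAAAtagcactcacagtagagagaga
Nr1h4: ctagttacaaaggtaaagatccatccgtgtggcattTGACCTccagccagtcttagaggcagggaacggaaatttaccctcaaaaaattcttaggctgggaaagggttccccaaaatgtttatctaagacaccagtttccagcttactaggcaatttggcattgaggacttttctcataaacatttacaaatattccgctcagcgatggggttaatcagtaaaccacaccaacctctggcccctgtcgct
Rxra: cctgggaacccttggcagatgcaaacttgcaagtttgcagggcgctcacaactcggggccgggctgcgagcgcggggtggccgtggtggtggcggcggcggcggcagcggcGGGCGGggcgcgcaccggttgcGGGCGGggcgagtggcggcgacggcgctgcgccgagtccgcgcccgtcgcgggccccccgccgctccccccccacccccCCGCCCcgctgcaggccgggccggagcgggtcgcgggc
The Nr0b2 window held a TATA box 28 bases before the start site and 1 GC box, the Nr1h4 window held 1 AGGTCA core on the opposite strand, and the printed Rxra window held 3 GC boxes. Another RefSeq window of Rxra, at chr2:27709042-27709291 and not printed, held the AGGTCA core on both strands. RefSeq gave 16 such windows for the 10 genes. A TATA box stood in 2 of them, against 12.4% of all 32851 windows of the same length, and a GC box in 10, against 32.7%. The AGGTCA core stood in 5 of the 16, against 4607 of all 32851 windows, and the DR1 and IR1 repeats contain it. The direct repeat DR1 that PPAR and RXR bind, which is AGGTCA followed by any base and AGGTCA again, was in 0 of the 16 and 0.0335% of all windows, and the inverted repeat IR1 that FXR and RXR bind, which is AGGTCA, any base and TGACCT, was in 0 and 0.00609%. The extended core TCAAGGTCA and the cAMP response element TGACGTCA were also in 0 of the 16, against 0.387% and 1.55% of all windows. Only exact matches were searched. At such low shares 0 of the 16 carries no information on receptor sites with other letters. None of these motifs overlaps another in the 3 printed windows. GC content was 44.4% in the Nr1h4 window and 81.2% in the printed Rxra window, against a median of 52.4% over all windows.

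None of the 10 transcripts passed the test between DEHP-exposed and control livers, and the fitted ratios of exposed to control ran from 0.776 for Nr0b2 to 1.25 for Med1. The test was edgeR's quasi-likelihood test over all genes, with Benjamini-Hochberg adjustment and a threshold of 0.05, which called 0.0722% of the genes tested. The smallest adjusted p among the members was 0.544, for Med1. At an unadjusted p of 0.05 there were 0 of 10 members, against 13.1% of all genes tested. DESeq2 and limma-voom each called 0 of 10 members, and over all genes tested they called 272 and 2. Fitted log2 fold changes were positive for 5 members and negative for 5, with a median of -0.01, against -0.03 over all genes. For 9 of the 10, the 95% interval of the log2 fold change lay within -1 and 1, that is, within a 2-fold difference either way, and the exception was Nr0b2.

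**Figure D1:**
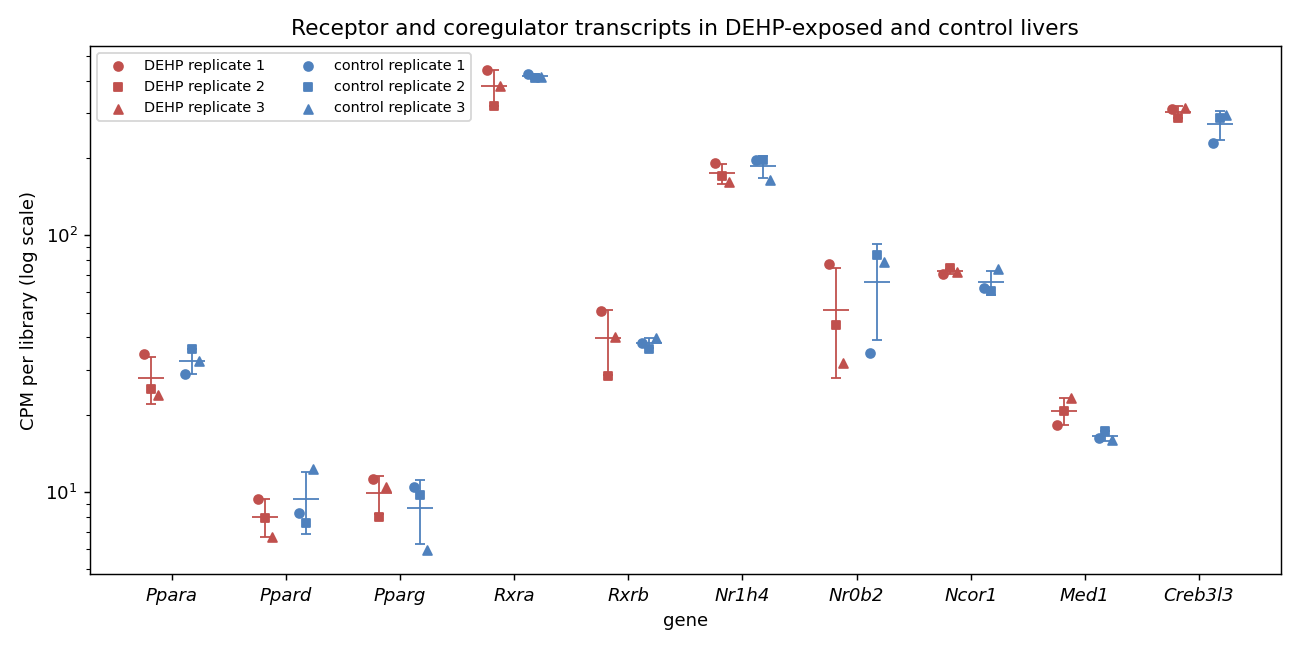
Transcript level of each of the 10 genes in each library, in CPM on a log axis, with DEHP-exposed livers in red and control livers in blue. Bars give the mean and SD over 3 libraries, and the groups overlap for every gene except Med1.

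The depth behind these values differed between genes. Total counts ran from 10410098 to 12405044 in the exposed libraries and from 12001969 to 14229803 in the controls, and a member's row held between 67 counts (Pparg in control replicate 3) and 6001 counts (Rxra in control replicate 1). Counting error alone is 12.2% of the value at that lowest Pparg count and 1.66% at the lowest Rxra count. Values below are CPM, the usual library-size scaling of counts, taken relative to the TMM-adjusted total of the genes tested. The hepatocyte markers Alb, Apoa1, Ttr, Apoc3, Fabp1 and Cps1 summed to 91935 to 122019 CPM in exposed livers and 105473 to 147887 CPM in controls, so the tissue carried the transcripts of liver. Interferon-stimulated genes set 2 libraries apart: 12 of them summed to 287 to 365 CPM in exposed livers, and to 3562, 2679 and 338 CPM in control replicates 1, 2 and 3. Of the 11 tested, 0 passed the adjusted test with edgeR and 7 were called lower with DESeq2, which called 155 lower over all genes. By edgeR 11 were lower at an unadjusted p of 0.05, against 6.97% of all genes tested, with a median log2 fold change of -3.14. Stat2 had -1.54 ± 0.32 (SE, edgeR adjusted p = 0.142) and Mx2 -2.54 ± 0.50 (0.143). The 9 Kupffer cell and macrophage markers had the same split, with 223 to 323 CPM in exposed livers, and 717, 611 and 203 CPM in control replicates 1, 2 and 3. None of those 9 was at 0, and 3 were lower at an unadjusted p of 0.05, against 6.97% of all genes tested. The part of these cells and genes in the results below was not tested, and values without control replicates 1 and 2 are given for part of the results. Those values rest on 1 control, assumed to vary like the exposed livers. In whole liver, fewer cells of a type and less RNA per cell cannot be told apart.

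Among the PPAR genes, none of the 3 passed the test. Ppara, the isotype that drives fatty acid oxidation in hepatocytes, had 34.4, 25.1 and 23.9 CPM in DEHP replicates 1 to 3, and 28.8, 36.1 and 32.3 CPM in control replicates 1 to 3. DEHP replicate 1 lay among the controls, and the other 2 exposed livers lay below every control. The log2 fold change was -0.22 ± 0.21 (SE, edgeR adjusted p = 0.699), with a 95% interval from -0.67 to 0.23. Without DEHP replicate 1 it was -0.38 (adjusted p = 0.464).

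Ppard, the widely expressed isotype, had 9.42, 7.94 and 6.71 CPM in exposed livers, and 8.29, 7.59 and 12.3 CPM in controls. Control replicate 3 stood above the other 5 libraries, which overlapped. The log2 fold change was -0.23 ± 0.30 (SE, edgeR adjusted p = 0.794), with an interval from -0.88 to 0.42, and 0.03 without control replicate 3.

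Pparg, the isotype of adipocytes and of fat-laden liver, had 11.2, 8.03 and 10.4 CPM in exposed livers, and 10.4, 9.72 and 5.94 CPM in controls. The same control replicate 3 that was highest for Ppard was lowest for Pparg. The log2 fold change was 0.18 ± 0.30 (SE, edgeR adjusted p = 0.840), with an interval from -0.47 to 0.83. Its upper end, a ratio of 1.78, was the highest among the 10 genes. Without control replicate 3 the log2 fold change was -0.0041. Pparg is also expressed in macrophages and adipocytes. The macrophage markers summed to 223, 323 and 264 CPM in exposed livers, and to 717, 611 and 203 CPM in controls. With control replicates 1 and 2 left out, the Pparg log2 fold change was 0.75. The adipocyte markers Adipoq, Retn, Cfd and Plin1 summed to 0.810, 0 and 20.5 CPM in exposed livers, and to 1.20, 1.34 and 0.354 CPM in controls. The part of either cell type in the Pparg values was not tested.

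Between genes, levels can be compared only per length, here as CPM per kilobase of the gene length in the table. On that scale Ppara made up most of the PPAR family in every library, with 60.6%, 59.6% and 55.5% of the summed level of the 3 genes in exposed livers and 58.6%, 65.6% and 64.3% in controls. The Pparg share was 25.7%, 24.7% and 31.6% in exposed livers, and 27.5%, 22.9% and 15.4% in controls. The Ppard share averaged 14.1% ± 1.38 in exposed livers and 15.2% ± 4.60 in controls (SD, n = 3 each). Both groups overlapped for each isotype. The mean shares in exposed livers differed from those in controls by -4.25 percentage points for Ppara (two-sided exact permutation p = 0.3, adjusted p = 0.36 over 6 isotypes), by 5.40 for Pparg (exact p = 0.3, adjusted 0.36) and by -1.15 for Ppard (exact p = 0.8, adjusted 0.8). With 3 libraries a group the smallest p possible is 0.1. With 1 library left out at a time, the difference ranged from -6.38 (without control replicate 1) to -2.72 (without DEHP replicate 3) for Ppara. For Pparg it was lowest at 2.12, with control replicate 3 left out, and highest at 8.17, with control replicate 1 left out. For Ppard it was lowest at -3.05, with control replicate 2 left out, and 1.404 with control replicate 3 left out.

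**Figure D2:**
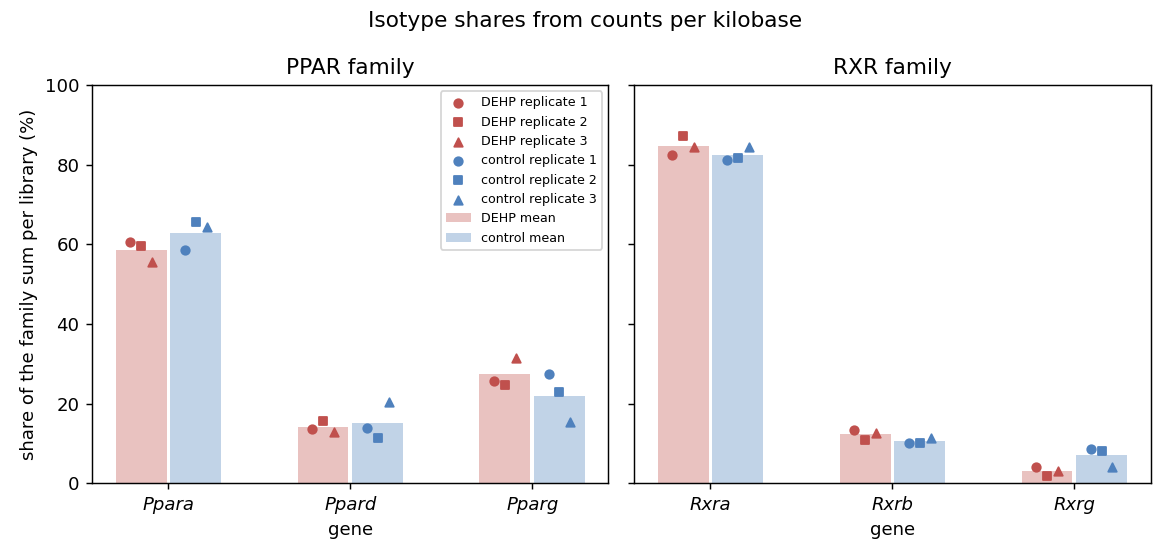
Share of each isotype in the summed level of its family, in percent, from counts per kilobase of gene length. Points are libraries and bars are means of 3, with DEHP-exposed livers in red and controls in blue; Ppara and Rxra hold the largest share of their families in all 6 libraries.

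Rxra, the main RXR of hepatocytes, had 439, 318 and 382 CPM in exposed livers, and 425, 408 and 414 CPM in controls. The controls lay close together, within a coefficient of variation of 2.15%, and the exposed livers spread around them, with 15.9%. Rxra had a log2 fold change of -0.13 ± 0.19 (SE, edgeR adjusted p = 0.816), with an interval from -0.54 to 0.28. Rxrb, an RXR found in most tissues, had 50.7, 28.3 and 40.3 CPM in exposed livers, and 38.1, 36.2 and 39.8 CPM in controls. Here too the exposed livers lay on both sides of a narrow control range, with coefficients of variation of 28.3% in exposed livers and 4.73% in controls. The Rxrb log2 fold change was 0.06 ± 0.22 (SE, edgeR adjusted p = 0.936), with an interval from -0.41 to 0.53, and -0.13 without DEHP replicate 1, the highest library for both RXR genes. The difference in spread between the groups was not tested.

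Rxra held 82.4%, 87.2% and 84.4% of the RXR family per length in exposed livers, and 81.1%, 81.7% and 84.4% in controls. The share of Rxrb was 13.4%, 10.9% and 12.5% in exposed livers and 10.2%, 10.2% and 11.4% in controls. Neither share separated the groups (two-sided exact permutation p = 0.3 and 0.2, adjusted p = 0.36 each over 6 isotypes). Rxrg, the third RXR gene and not one of the 10, had 7.49, 2.36 and 4.76 CPM in exposed livers, and 15.3, 13.5 and 6.82 CPM in controls. Its log2 fold change was -1.30 ± 0.42 (SE, edgeR adjusted p = 0.252), and without control replicate 3 it passed, at -1.55 (edgeR adjusted p = 0.0443). With control replicates 1 and 2 both left out, it was -0.48. Rxrg made up 3.08% ± 1.14 of the family in exposed livers and 6.97% ± 2.46 in controls (SD, n = 3 each, two-sided exact permutation p = 0.2). Summed over each family per length, RXR exceeded PPAR 6.91, 6.39 and 7.77 times in exposed livers and 7.85, 6.69 and 7.20 times in controls, so the ratio of the partner to the PPAR genes overlapped between the groups.

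Nr1h4, which encodes FXR, was one of the steadiest members, with 191, 171 and 161 CPM in exposed livers and 196, 196 and 163 CPM in controls. Its coefficient of variation over the 6 libraries was 9.26%, a value that only 3.51% of the genes tested were at or below. That rank is over genes of every level, many with more counting error than Nr1h4, which had 1843 to 2771 counts. Its log2 fold change was -0.09 ± 0.18 (SE, edgeR adjusted p = 0.878), and its interval from -0.49 to 0.31 corresponds to ratios from 0.714 to 1.24. With control replicates 1 and 2 left out it was 0.10.

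Nr0b2, which encodes SHP, varied most. It had 77.0, 44.6 and 31.9 CPM in exposed livers, and 34.9, 83.8 and 79.0 CPM in controls. Each group therefore held libraries near both ends of the range, with 2.63 times between the lowest and the highest of the 6 and counts of 375 to 1060. The log2 fold change was -0.37 ± 0.40 (SE, edgeR adjusted p = 0.751), with an interval from -1.30 to 0.56, so the interval holds both no difference and a difference beyond 2-fold downwards. It was -0.76 without DEHP replicate 1 and -0.11 without DEHP replicate 3.

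The printed windows of the Nr0b2 and Nr1h4 promoters belong to the member with the highest coefficient of variation, 40.9%, and to one of the lowest. Cyp7a1, which encodes the enzyme that limits bile acid production and is a gene that SHP represses, had 52.8, 138 and 119 CPM in exposed livers, and 33.7, 29.6 and 33.1 CPM in controls. Among exposed livers, the one with the highest Nr0b2 level had the lowest Cyp7a1 level. The one with the lowest Nr0b2 level was not the highest for Cyp7a1. Among controls Cyp7a1 had 29.6 to 33.7 CPM at Nr0b2 levels of 34.9 to 83.8 CPM. A link between these genes was not tested. Cyp7a1 had a log2 fold change of 1.69 ± 0.30 (SE, edgeR adjusted p = 0.120), and passed without DEHP replicate 1 (2.03, edgeR adjusted p = 3.41e-04) or without control replicate 3 (1.73, edgeR adjusted p = 0.0162).

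Ncor1, the corepressor, had 70.9, 74.2 and 71.9 CPM in exposed livers, and 62.1, 60.6 and 73.9 CPM in controls. Exposed livers lay within a coefficient of variation of 2.38%, and control replicate 3 lay among them. Ncor1 had a log2 fold change of 0.14 ± 0.18 (SE, edgeR adjusted p = 0.781), with an interval from -0.24 to 0.53. With control replicates 1 and 2 left out it was -0.02. On the opposite strand, Ttc19, Pigl and a processed pseudogene overlap the Ncor1 gene, and no source used here states whether counting used strand.

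Med1, the Mediator subunit, was the single member whose groups did not overlap, with 18.2, 20.7 and 23.2 CPM in exposed livers, and 16.3, 17.3 and 15.9 CPM in controls. All 3 exposed livers were above all 3 controls; 1 of 10 members was higher without overlap and 0 were lower, against 17.7% of all genes tested without overlap in either direction and 8.57% lower without overlap. The log2 fold change was 0.33 ± 0.21 (SE, edgeR adjusted p = 0.544), with an interval from -0.13 to 0.78. A processed pseudogene of 742 bases lies inside Med1 on the other strand and had 67, 132 and 91 counts in exposed livers and 199, 86 and 109 counts in controls, beside 180 to 273 counts for Med1 itself in all 6. With those counts added to Med1, the log2 fold change was 0.14 (edgeR adjusted p = 0.819).

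Creb3l3 had 310, 285 and 312 CPM in exposed livers, and 229, 287 and 294 CPM in controls. Control replicate 1 was lower than the other 5 libraries, which lay within 285 to 312 CPM. Creb3l3 had a log2 fold change of 0.16 ± 0.19 (SE, edgeR adjusted p = 0.756), with an interval from -0.24 to 0.56, and 0.06 without control replicate 1.

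**Figure D3:**
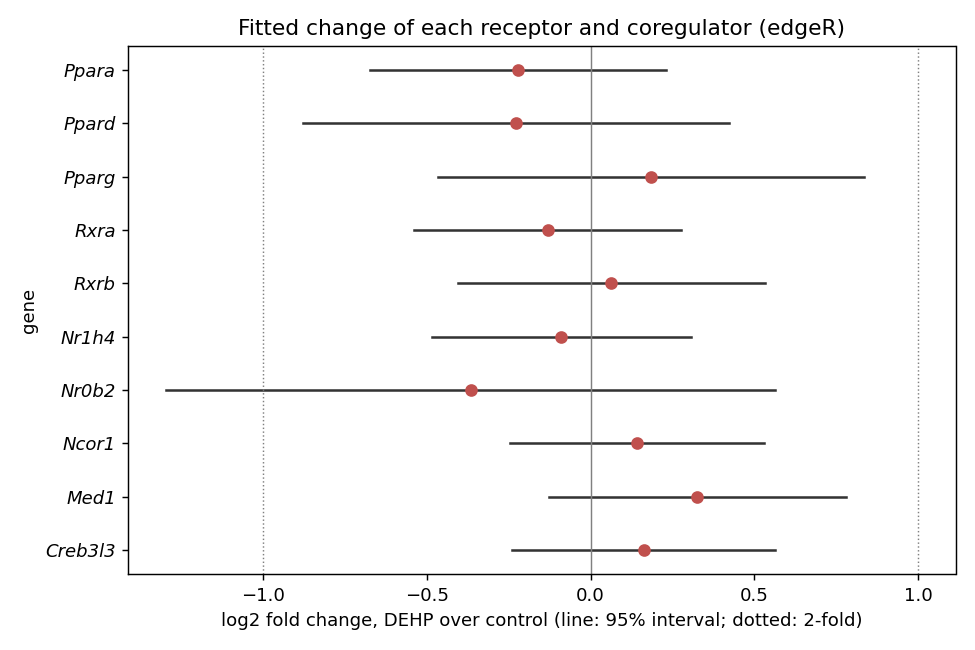
Fitted log2 fold change of each gene, DEHP over control (points), with its 95% interval (lines) derived from the edgeR fit. Every interval includes 0, and all but that of Nr0b2 lie between the dotted lines at -1 and 1.

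Ordered by mean level per length over the 6 libraries, the 10 transcripts fell into a high and a low set. Creb3l3 came first at 94.8 ± 10.01 CPM per kilobase (SD, n = 6), then Nr1h4 at 81.7 ± 7.57, Rxra at 76.4 ± 8.31 and Nr0b2 at 51.7 ± 21.1. The ranges of neighbours overlapped throughout these 4, and the order of Creb3l3, Nr1h4 and Rxra differed between libraries. Nr0b2 was the lowest of the 4 in all 6 libraries. They lay within the top 8.05% of the genes tested. Rxrb followed at 10.5 ± 1.96 CPM per kilobase and Ppara at 7.85 ± 1.30, with overlapping ranges. Ncor1 had 5.37 ± 0.469, apart from both neighbours. Pparg (3.15 ± 0.668), Med1 (2.90 ± 0.438) and Ppard (1.88 ± 0.427) came last, each overlapping its neighbour. Ppara thus stood below its partner Rxra and below FXR in all 6 libraries.

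The members did not share 1 pattern across libraries. DEHP replicate 1 was above the 6-library mean of the log2 CPM for 9 of 10 members, and 8 of 10 members were higher there than in DEHP replicate 2. The other libraries were above that mean for 3 to 7 members. The 2 genes whose log2 CPM followed a member most closely over the 6 libraries were Sec23ip (Pearson r = 0.994) and Naa16 (0.988) for Ppara, and Rab29 (0.993) and Ang (0.992) for Nr1h4. For Nr0b2 they were Cfap20 (0.998) and Dnaja1 (0.986), and for Creb3l3 Ube2h (0.992) and Ybx1 (0.987). These are the highest of 8517 genes with a mean of at least 5 CPM, predicted genes left out, over 6 points that share depth and scaling.

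**Figure D4:**
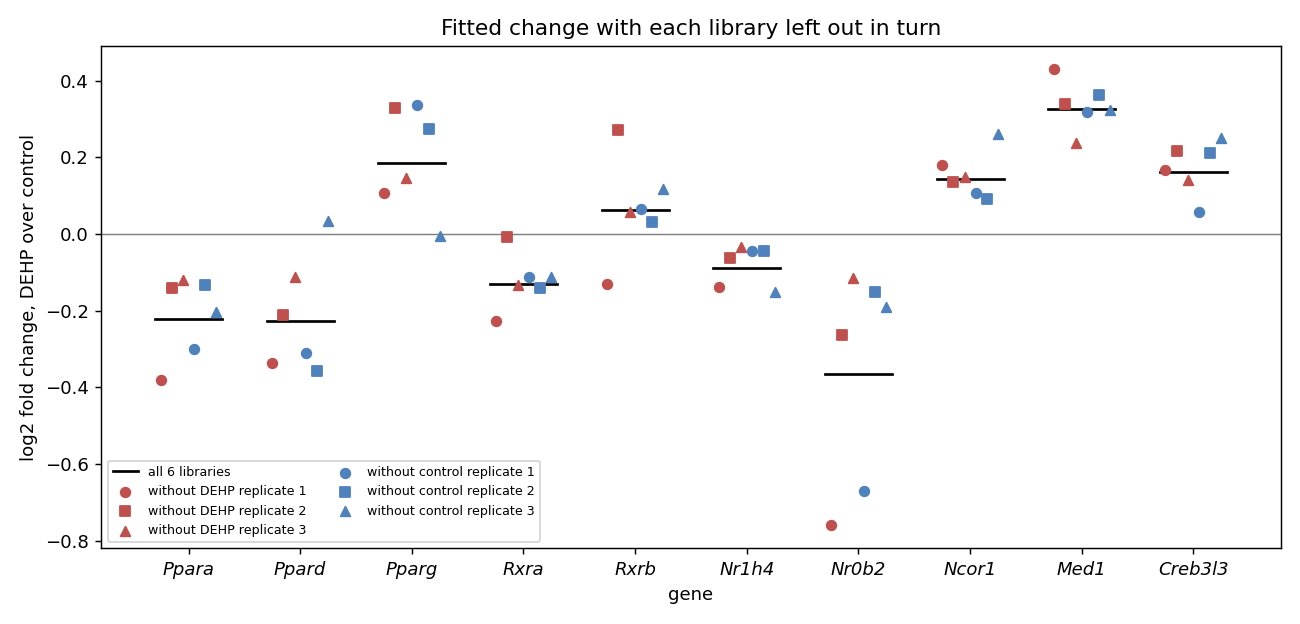
Log2 fold change of each gene, DEHP over control, with all 6 libraries (black lines) and with each library left out in turn (points). Ppard and Pparg change sign without control replicate 3 and Rxrb without DEHP replicate 1, and Nr0b2 has the widest range, from -0.76 to -0.11.

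With edgeR, the other partner and coregulator lists likewise gave no gene past the threshold over all genes. Of 13 other coactivators tested, 0 passed with edgeR, DESeq2 or limma-voom. By edgeR 0 had an unadjusted p under 0.05, against 13.1% of all genes tested. The median log2 fold change was -0.01, against -0.03 over all genes. The smallest p belonged to Cited2, a CBP/p300-interacting coactivator (log2 fold change 0.36 ± 0.24, edgeR adjusted p = 0.546), and Kmt2c, a histone methyltransferase (0.30 ± 0.21, edgeR adjusted p = 0.580). Ppargc1a, the PPAR coactivator PGC-1alpha, had 16.7, 22.8 and 8.84 CPM in exposed livers, and 7.80, 9.72 and 19.7 CPM in controls (0.38 ± 0.40, edgeR adjusted p = 0.734). Both groups overlapped.

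Of 29 other Mediator genes tested, 0 passed with edgeR, DESeq2 or limma-voom, with 2 genes higher and 2 lower by the unadjusted p (under 0.05) and a median of -0.11. For this list and the next ones, the shares over all genes tested at that p were 6.11% higher and 6.97% lower. Med13, of the kinase module, had 22.1, 21.1 and 15.9 CPM in exposed livers, and 10.7, 11.4 and 12.8 CPM in controls (log2 fold change 0.76 ± 0.23, edgeR adjusted p = 0.220). Med14, the scaffold of the complex, had 15.0, 15.9 and 12.3 CPM in exposed livers, and 6.52, 11.3 and 8.86 CPM in controls (0.70 ± 0.28, edgeR adjusted p = 0.327). For both, every exposed liver was above every control. Of the 29, 3 were higher and 4 lower without overlap between the groups, against 17.7% of all genes tested without overlap in either direction. Of 8 other corepressor genes, 0 passed with any of the 3 tools, with 1 gene higher and 1 lower by the unadjusted p (under 0.05) and a median of -0.01. These were Tbl1xr1, a subunit of the NCOR1 complex that exchanges corepressors for coactivators (0.57 ± 0.23, edgeR adjusted p = 0.329), and Gps2, another subunit (-0.53 ± 0.24, edgeR adjusted p = 0.371). Of 10 other receptors that pair with RXR or belong to the same group, 0 passed with edgeR or limma-voom and 1 with DESeq2, with 1 gene higher and 3 lower by the unadjusted p (under 0.05) and a median of 0.02. The smallest p was that of Thra, thyroid hormone receptor alpha, at 9.62, 6.37 and 9.17 CPM in exposed livers and 18.9, 13.8 and 28.3 CPM in controls (-1.28 ± 0.30, edgeR adjusted p = 0.143, and 0.0120 with DESeq2). Its groups did not overlap.

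Target genes of the receptors gave the only listed genes past the threshold. Among 19 PPARalpha targets tested, 1 passed and was higher, 10 were higher and 1 was lower with an unadjusted p under 0.05, and the median log2 fold change was 0.49, against -0.03 over all genes. Over all genes, 6.11% were higher and 6.97% lower at that p. DESeq2 called 6 of the 19, all higher, against 117 higher and 155 lower over all genes. With limma-voom 1 of the 19 was called, against 2 over all genes. The one that passed was Cd36, a fatty acid uptake receptor, which rose to 92.6, 121 and 122 CPM in exposed livers, against 19.8, 21.1 and 29.2 CPM in controls (2.26 ± 0.22, edgeR adjusted p = 3.51e-04). Among 6 PPARgamma targets of fatty liver tested, all 6 fold changes were positive with a median of 1.08, and 2 passed, Cd36 again and Lpl, lipoprotein lipase, which rose to 50.1, 53.5 and 62.5 CPM, against 27.4, 17.7 and 22.2 CPM in controls (1.30 ± 0.21, edgeR adjusted p = 0.0339). Of the same 6, DESeq2 called 3 (Cd36, Lpl and Mogat1), all higher, and limma-voom called 1, Cd36. Lpl missed the threshold without control replicate 1 (edgeR adjusted p = 0.0507), control replicate 2 (0.225), DEHP replicate 2 (0.145) or DEHP replicate 3 (0.285). With all 6 libraries it also missed the threshold with limma-voom (adjusted p = 0.105), the edgeR fit that is not robust (0.0620) and the replicate block (0.144), at log2 fold changes of 1.30 to 1.32. With control replicates 1 and 2 both left out, 1 control remained and no gene of the whole table passed; the Cd36 log2 fold change was then 1.95 and the PPARalpha median 0.14. Cyp4a14, the omega-hydroxylase, had 2630, 3256 and 2633 CPM in exposed livers, and 858, 714 and 2231 CPM in controls (1.16 ± 0.40, edgeR adjusted p = 0.303). It passed without control replicate 3 (1.88, edgeR adjusted p = 1.31e-04) and was 0.36 without control replicates 1 and 2. The lists were chosen with earlier results of these livers known, so their direction is not independent support.

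Of 15 FXR and SHP axis genes tested, 0 passed with edgeR or limma-voom and 1, Cyp7a1, with DESeq2 (adjusted p = 1.99e-05), with 4 genes higher and 0 lower by the unadjusted p (under 0.05) and a median of 0.09. Over all genes tested, 6.11% were higher and 6.97% lower at that unadjusted p, and DESeq2 called 272. Beside Cyp7a1, the smallest p was that of Slc27a5, the bile acid CoA ligase, with 1099, 1156 and 1353 CPM in exposed livers, and 643, 749 and 931 CPM in controls (0.64 ± 0.20, edgeR adjusted p = 0.237). Abcb11, the bile salt export pump and an FXR target, had 303, 331 and 312 CPM in exposed livers, and 306, 264 and 415 CPM in controls (-0.06 ± 0.21, edgeR adjusted p = 0.937), and 0.17 without control replicate 3. The list thus mixes FXR targets with genes that SHP represses, such as Cyp7a1. Its median and counts therefore give no direction for the axis. Of 8 CREB3L3 targets tested, 0 passed with edgeR or limma-voom and 1 with DESeq2, with 1 gene higher and 4 lower by the unadjusted p (under 0.05) and a median of -0.28. Apoa4, an apolipoprotein of fasting and fat intake, had 50.7, 66.2 and 109 CPM in exposed livers, and 391, 151 and 223 CPM in controls (-1.76 ± 0.39, edgeR adjusted p = 0.169, and 8.34e-05 with DESeq2). Fgf21, a fasting hormone under both PPARalpha and CREB3L3, had 1.42, 0.174 and 1.44 CPM in exposed livers, and 9.43, 2.21 and 2.39 CPM in controls (-2.21 ± 0.76, edgeR adjusted p = 0.280). These Fgf21 values lie near the floor of counting, with 0.174 CPM in DEHP replicate 2, a library of 12405044 counts. Without control replicate 1, the highest library, the Fgf21 log2 fold change was -1.18, and without control replicates 1 and 2 it was -1.23. Apoa4 and Fgf21 were lower in every exposed liver than in every control, while Creb3l3 itself overlapped between the groups. Of the 8 targets, 1 was higher and 2 were lower without overlap. Over all genes tested, 17.7% did not overlap in either direction and 8.57% were lower without overlap.

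**Figure D5:**
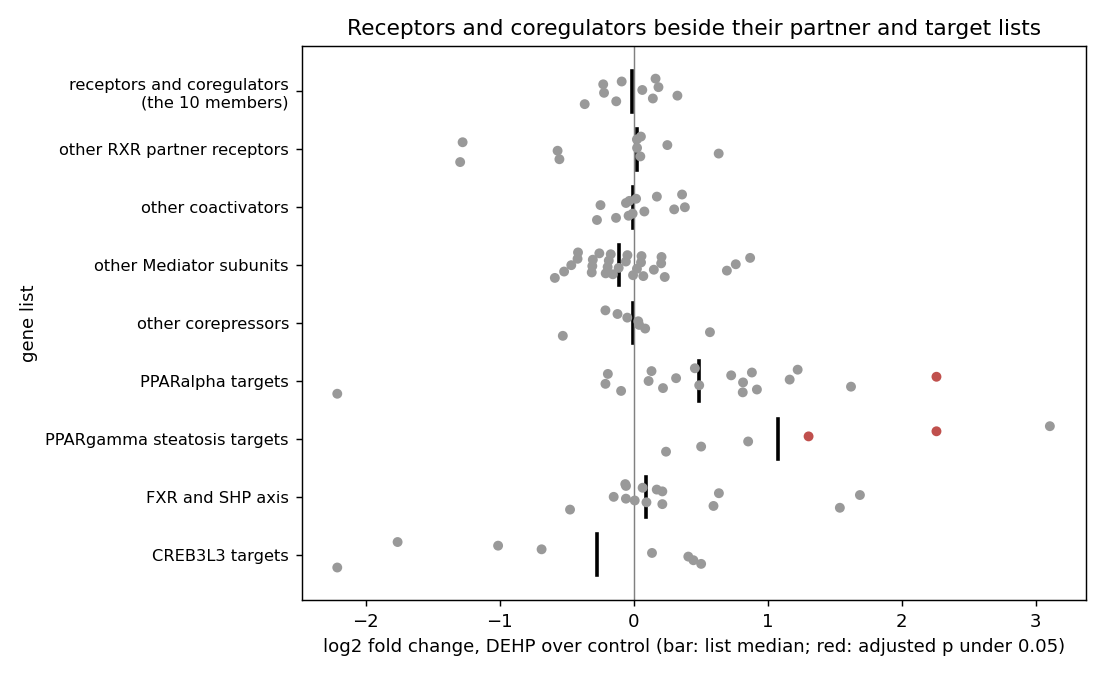
Log2 fold change, DEHP over control, of every tested gene in the 10-member set and in 8 lists of partners and targets (points), with the list median (black bars). Red points passed an adjusted p of 0.05; the 10 members lie between -0.37 and 0.33, and the points past the threshold are Cd36, in both target lists that hold it, and Lpl.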

How the data were processed

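Poly-A RNA of 6 mouse liver libraries was sequenced with paired ends, and per the labels' protocols the library kit marks strand. The authors deposited 1 table of read counts per gene, not normalized. Build GRCm38.p6 is named per the submitters' processing notes, while the table's identifiers are of C57BL/6NJ; no source used here gives the aligner, the counter or its strand setting. Groups come from the sample titles, and columns named High or Control with a replicate number were read as the livers with and without DEHP of that number, since the series' design text describes another assay. Rows with no gene name (1284, 2.73% to 4.28% of counts) were left out. Genes passing edgeR's filterByExpr (minimum count 10) were scaled by TMM and tested with the robust quasi-likelihood test (edgeR 4.0.16, R 4.3.3), with Benjamini-Hochberg adjustment over 12468 genes. The biological coefficient of variation was 27.8%. No 2 libraries of a group agreed within sampling noise, so none was treated as a library deposited more than once; this does not show that they came from separate animals. Depth was 10410098 to 14229803 counts, and counting error covers reads, not molecules.

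Alternatives were DESeq2 1.42.0, limma-voom (limma 3.58.1), scaling by RLE, a filter of 1 CPM on the mean or none, a non-robust fit, a block for the replicate number, shares without division by length and leaving out each library. Leaving out control replicates 1 and 2 together, and adding overlapping pseudogene counts, were chosen after seeing the data. Isotype shares were compared with two-sided exact permutation tests. The steps were tested on simulated data. The members and lists were chosen with earlier results of these data known. Text names all members, each list's genes past the adjusted threshold or otherwise its 2 with the smallest p, and Cyp7a1, Abcb11, Cyp4a14 and Ppargc1a. For Ppara, Nr1h4, Nr0b2 and Creb3l3 the 2 genes with the highest Pearson r of log2 CPM (prior count 2) are also named.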

Additional observations from a re-analysis of the deposited data

How the results depend on the processing

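The count of members past the threshold was 0 under all 14 alternatives that gave one, and the smallest adjusted p of a member under any was 0.398 (Nr0b2 without DEHP replicate 1, edgeR). Of 142 member values, 137 kept their direction; the exceptions were Ppard (0.035) and Pparg (-0.0041) without control replicate 3, Rxrb (-0.13) without DEHP replicate 1, and Nr1h4 (0.10) and Ncor1 (-0.019) without control replicates 1 and 2. With 1 library left out, Ppard ranged from -0.36 to 0.035, Pparg from -0.0041 to 0.34, Rxrb from -0.13 to 0.27 and Abcb11 from -0.19 to 0.17. Ppargc1a was -0.27 without control replicates 1 and 2, and the Ppard share difference ranged from -3.05 to 1.404 percentage points with 1 library left out. Some sizes also moved without control replicates 1 and 2. Log2 fold changes were then 0.75 for Pparg, -0.61 for Ppard, -0.62 for Nr0b2, 0.051 for Creb3l3 and 0.0068 for Rxrb. Outside the members they were -0.38 for Abcb11, -0.62 for Stat2 and -0.93 for Mx2. The 9 genes called overall became 496 with no filter, 272 with DESeq2, 2 with limma-voom, 6 with the replicate block, 5 to 400 with 1 library left out (400 without control replicate 3) and 0 without control replicates 1 and 2, where 1 control is assumed to vary like the exposed livers and a missed threshold says little. List medians without control replicates 1 and 2 were -0.087 for CREB3L3 targets, -0.023 for the FXR and SHP axis, 0.14 for PPARalpha targets, -0.091 for corepressors, 0.32 for interferon-stimulated genes, 0.042 for Mediator and -0.28 for RXR partners. RXR partners had -0.27 with limma-voom and -0.23 with the replicate block. With 1 library left out, medians ranged from 0.023 to 0.20 for the FXR and SHP axis, -0.069 to 0.17 for coactivators, -0.23 to -0.033 for Mediator and -0.26 to 0.045 for RXR partners. The causes were not tested. Deviations of same-numbered libraries from their group means had correlations of -0.02, 0.06 and -0.03 over all genes tested. Such correlations cannot exclude a pairing by number that touches few genes. The replicate block called 0 members. Depth limits Ppard and Pparg most.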
